A study of Mus musculus with 6 samples.

Results

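The transcription factors that set hepatocyte identity were examined in RNA-seq of mouse liver tumors. They are Hnf4a, Foxa1, Foxa2, Foxa3, Cebpa, Cebpb, Onecut1, Prox1 and Nr5a2, taken by symbol from the deposited table. All 9 were found among its 30236 rows, and each of the 9 passed the filter on low values. Tumors came from male C57BL/6 mice that were either WT or carried a germline deletion of Top1mt, the gene for mitochondrial topoisomerase I, and both genotypes were littermates of heterozygous crosses. There were 3 WT libraries (WT1, WT2 and WT3) and 3 Top1mt-KO libraries (KO1, KO2 and KO3). Mice of both genotypes received the carcinogen diethylnitrosamine on postnatal day 14. Carbon tetrachloride, which injures hepatocytes, was then injected for 14 weeks from week 8, and tumors were collected at 22 weeks. No tumor-free liver was analysed here, and Top1mt was missing from every cell of a knockout mouse, not from hepatocytes alone.

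Hepatocyte identity is held by a network of factors that bind the regulatory regions of liver genes and of each other. HNF4A is a nuclear receptor at the centre of it, FOXA proteins are pioneer factors that open chromatin, and C/EBP proteins are leucine zipper factors that drive metabolic and acute phase genes. ONECUT1, also called HNF6, acts early in liver development, PROX1 is a homeobox factor that often represses, and NR5A2, also called LRH-1, is a nuclear receptor that drives bile acid and cholesterol genes.

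Values are log2 expression values normalized between libraries by the authors, so a difference of 1 is a doubling. Their read depth is unknown. Genotypes were compared with limma, as Top1mt-KO minus WT, over the 22677 genes above the filter, and a gene was called at an adjusted p under 0.05. The exact permutation tests given for single genes are two-sided and run over 20 regroupings, which allow no p below 0.1. All p-values rest on the spread between these 6 tumors, and for limma that spread is drawn toward a trend over genes of similar level. In bulk tumor RNA, fewer cells of a type and less RNA per cell cannot be told apart.

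The libraries were checked first. Top1mt had log2 values of 7.71, 5.99 and 8.01 in WT1, WT2 and WT3, and of 5.58, 6.41 and 6.32 in KO1, KO2 and KO3. The library labelled WT2 therefore lay among the knockout libraries for the targeted gene, against its label, and every direction given here rests on the labels as they stand. The library labelled KO1 lay farthest from the others, with a mean root mean square difference of 0.807 against 0.762 to 0.773 for the remaining libraries. Its highest value was that of Gm42418 at 22.0, whereas Alb was highest in each of the other 5. Gm42418 was also raised in WT3, at 15.8, against 11.7 to 12.7 in WT1, WT2, KO2 and KO3. The defining hepatocyte markers (8 genes, among them Alb and Ttr) were high in every library, with a summed log2 level of 21.0 to 21.7 in WT and 21.2 to 21.9 in Top1mt-KO.

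Cebpb was the member that separated the genotypes, and its promoter window is therefore shown with the 2 windows of Hnf4a, the most abundant member. The Hnf4a windows are shown because this gene starts transcripts at an upstream promoter (P2) and at the P1 promoter used in adult hepatocytes, which a value per gene cannot tell apart. Windows run from 250 bases before to 50 bases after the start site, are from RefSeq on GRCm38.p6 and are all on the plus strand. Capitals mark matches to short motifs searched on both strands.
Cebpb, chr2:167688665-167688964: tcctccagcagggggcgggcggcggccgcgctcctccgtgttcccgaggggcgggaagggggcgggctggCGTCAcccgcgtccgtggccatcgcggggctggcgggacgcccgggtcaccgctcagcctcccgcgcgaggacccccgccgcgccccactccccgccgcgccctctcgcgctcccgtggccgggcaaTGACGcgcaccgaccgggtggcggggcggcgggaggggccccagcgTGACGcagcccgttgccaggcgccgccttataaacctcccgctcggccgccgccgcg
Hnf4a P2, chr2:163506607-163506906: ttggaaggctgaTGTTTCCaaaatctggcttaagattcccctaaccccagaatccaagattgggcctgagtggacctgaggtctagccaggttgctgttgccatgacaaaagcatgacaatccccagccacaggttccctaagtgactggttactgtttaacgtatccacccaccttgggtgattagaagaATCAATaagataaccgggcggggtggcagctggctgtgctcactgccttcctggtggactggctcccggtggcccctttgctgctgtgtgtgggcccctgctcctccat
Hnf4a P1, chr2:163546905-163547204: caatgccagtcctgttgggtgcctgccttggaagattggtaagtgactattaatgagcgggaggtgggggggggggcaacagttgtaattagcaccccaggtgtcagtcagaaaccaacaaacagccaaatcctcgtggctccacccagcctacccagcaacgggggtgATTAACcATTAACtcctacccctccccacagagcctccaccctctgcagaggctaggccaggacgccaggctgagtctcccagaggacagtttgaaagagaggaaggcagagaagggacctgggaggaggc
In the Cebpb window the capitals are the half-site of the cAMP response element, TGACG, which was matched at 3 positions, beginning at -180, -53 and -7 from the start site. This motif was in 20.8% of 32851 RefSeq windows of the same length. In the P2 window of Hnf4a the capitals are a FOXA match (TGTTTNC, in 20.5% of windows) and an ONECUT match (ATCAAT, in 7.54%). In the P1 window they are a tandem of HNF1 half-sites (GTTAAT, in 7.10%), which do not overlap. Of the 14 windows of the 9 members, 3 held TGACG, 3 held the FOXA letters, 3 the HNF1 letters and 2 the ONECUT letters. The C/EBP letters TTGCNNAA were in 1 (10.8% of all windows), and the C/EBP-ATF letters TGATGNAA were in 1 (3.97%). The HNF4 letters CAAAGTCC (1.42%) and the NR5A letters AAGGTCA (4.72%) were in 0 of the 14. Matches to such short letters describe the sequence and are not evidence of binding.

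Levels of different genes were compared per length, as the log2 value minus the log2 of the exonic length in kb. Hnf4a stood highest at 11.1 ± 0.19 (SD, n = 6 libraries), followed by Cebpa at 10.5 ± 0.34 and Foxa3 at 9.75 ± 0.30. Cebpb and Prox1 shared the next place at 8.32 ± 0.51 and 8.32 ± 0.30, and Nr5a2 followed at 7.72 ± 0.26. Foxa2 was at 6.80 ± 0.28, Onecut1 at 5.71 ± 0.61 and Foxa1 lowest at 5.63 ± 0.29. The order held in all 6 libraries for Hnf4a over Cebpa, Foxa3 over Cebpb, Prox1 over Nr5a2, Nr5a2 over Foxa2 and Foxa2 over Onecut1, and in 5 of 6 for Cebpa over Foxa3. Cebpb and Prox1 did not differ beyond their spread, with Cebpb above in 3 of 6 libraries. The same held for Onecut1 and Foxa1, with Onecut1 above in 3 of 6. The place of Onecut1, also below Foxa2, is uncertain, since 52.8% of its exonic bases are shared with the noncoding RNA Gm20649.

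**Figure D1:**
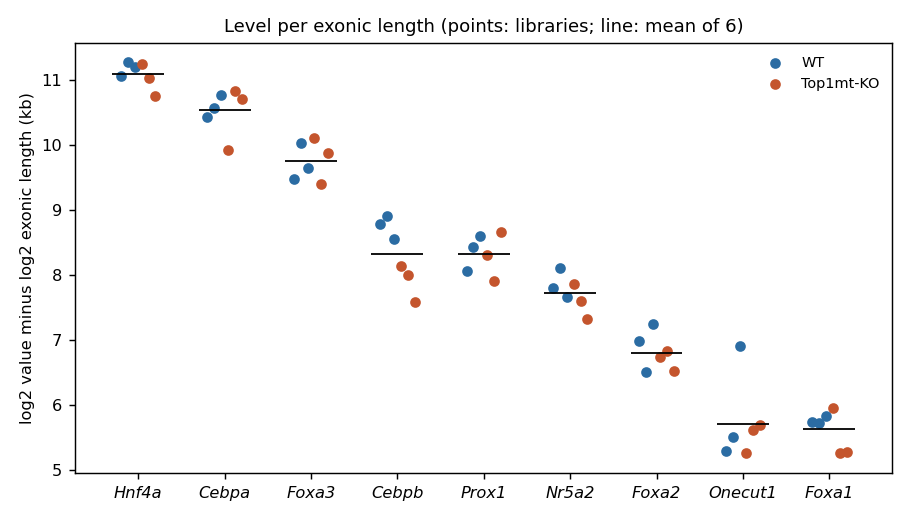
Level of each factor per exonic length (log2 value minus log2 kb, vertical axis) in the 3 WT and 3 Top1mt-KO libraries, with the mean of all 6 as a line. The means step down from 11.1 for Hnf4a to 5.63 for Foxa1, and the WT3 point of Onecut1 at 6.90 lies apart from the others.

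Most members differed little between genotypes. No member was called after adjustment (0 of 9, against 0% of the genes tested), and 1 of 9 had an unadjusted p under 0.05, against 4.34% of the genes tested. The member was Cebpb. It was also the only member whose groups did not overlap, where 8.28% of genes tested were without overlap and 4.33% were without overlap and lower in Top1mt-KO. The log2 fold change was below 0 for 8 of 9 members, against 52.3% of the genes tested. Its median was -0.21 over the members and -0.02 over all genes tested. Without WT3 the median over the members was -0.046, and 6 of 9 were below 0. The median size without sign was 0.21 over the members and 0.21 over all genes tested.

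**Figure D2:**
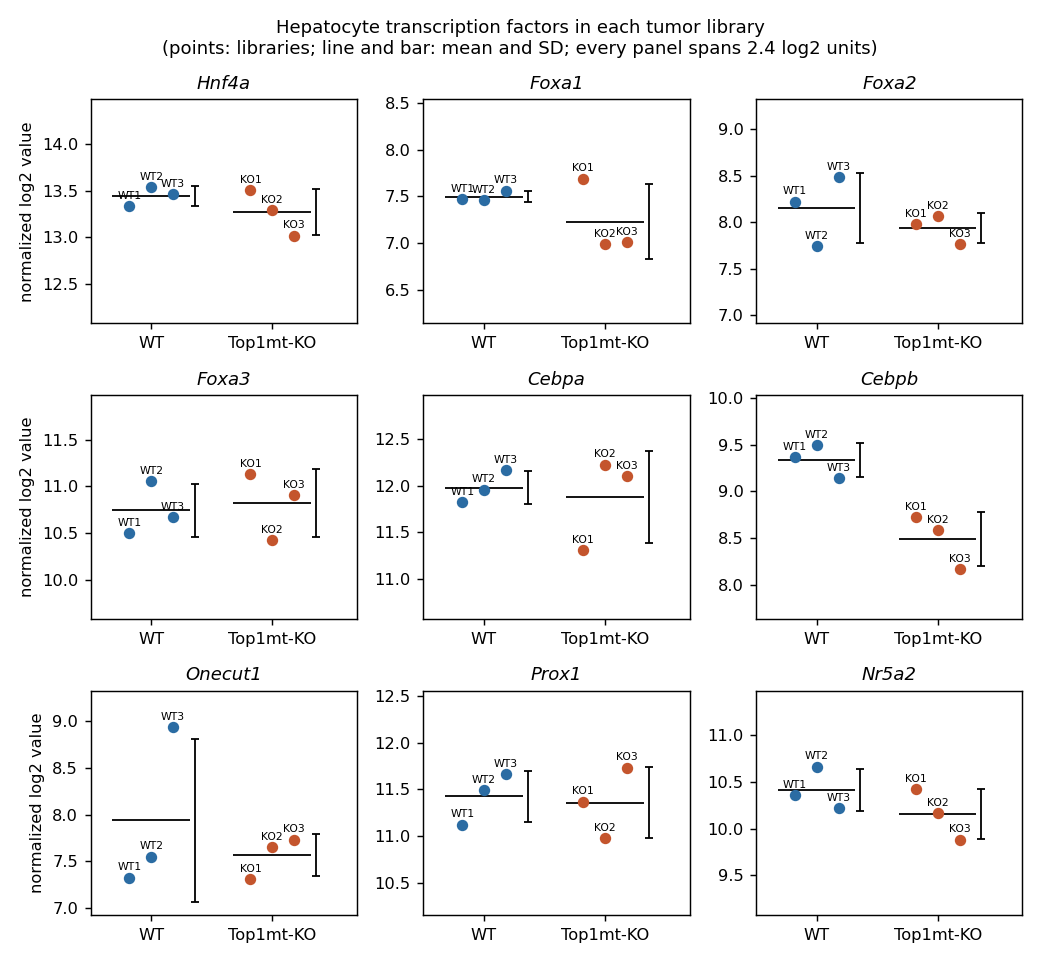
Normalized log2 value (vertical axis) of each factor in the 3 WT and 3 Top1mt-KO libraries, each point labelled with its library, with the group mean as a line and the SD as a bar. Cebpb is the only panel in which the groups do not overlap, KO1 stands above KO2 and KO3 for Foxa1 and below them for Cebpa, and WT3 stands apart for Onecut1.

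Hnf4a, the nuclear receptor that maintains the differentiated hepatocyte, had overlapping groups. It had values of 13.33, 13.54 and 13.46 in WT1, WT2 and WT3 and of 13.51, 13.30 and 13.02 in KO1, KO2 and KO3. KO3 was lowest and KO1 lay among the WT libraries, for a log2 fold change of -0.17 (SE 0.20, 95% interval -0.63 to 0.29), with an adjusted p of 0.999 from limma. Of the 8525 genes tested with a mean at least that of the lowest member, 58.3% varied more over the 6 libraries than Hnf4a, whose SD of 0.19 was the smallest of the members and was near the median of 0.22 of those genes. Its antisense neighbor Hnf4aos, which shares no exonic base with Hnf4a, had 6.37, 5.03 and 6.40 in WT and 6.33, 5.80 and 5.52 in Top1mt-KO, with overlapping groups and a log2 fold change of -0.05.

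The FOXA factors differed in level far more than between genotypes. Foxa3, the member of the family that rises latest in liver development, held 79.8, 88.0 and 79.3% of the family's summed level per length in WT and 86.7, 81.6 and 87.8% in Top1mt-KO. Foxa2 held 7.60 to 15.0% and Foxa1 3.62 to 6.01%. Foxa3 was therefore the main FOXA transcript in each of the 6 tumors.

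Foxa1 had values of 7.47, 7.46 and 7.56 in WT and 7.69, 6.99 and 7.01 in KO1, KO2 and KO3. The WT libraries lay close together, KO2 and KO3 lay below all of them and KO1 lay above all of them. The log2 fold change was -0.27 (SE 0.23, 95% interval -0.80 to 0.26; adjusted p from limma 0.999). Without KO1 it was -0.50 (95% interval -0.92 to -0.08), with an unadjusted p of 0.026 and an adjusted p of 0.752. Foxa2 had 8.22, 7.75 and 8.49 in WT1, WT2 and WT3 and 7.98, 8.07 and 7.76 in Top1mt-KO, a log2 fold change of -0.21 (SE 0.22). WT2 was the lowest of all 6, and without it the groups no longer overlapped, at -0.42. Foxa3 had 10.50, 11.06 and 10.67 in WT and 11.13, 10.42 and 10.90 in Top1mt-KO, with a log2 fold change of 0.08 (SE 0.22). KO1 and WT2 were its highest libraries, and the sign turned when WT1 or KO1 was left out, to -0.05 and -0.08.

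Of the C/EBP factors, Cebpb separated the genotypes and Cebpa did not. Cebpb, which is induced in liver by cytokines and injury, had values of 9.37, 9.50 and 9.14 in WT1, WT2 and WT3. In KO1, KO2 and KO3 it had 8.72, 8.58 and 8.16. Every library labelled Top1mt-KO lay below every library labelled WT, with a gap of 0.42 between the nearest of them. Means were 9.33 ± 0.18 for the WT and 8.49 ± 0.29 for the Top1mt-KO tumors (SD, n = 3 each). The log2 fold change was -0.84 (SE 0.18, 95% interval -1.27 to -0.42), that is, 1.80-fold lower. The unadjusted p from limma was 0.0019, the adjusted p over all genes tested was 0.938, and the exact permutation p was 0.1, the smallest that 3 against 3 allow. The difference was therefore larger than the spread between replicates, but it was not called once adjusted for the number of genes tested.

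The groups of Cebpb did not overlap, so leaving libraries out could not turn its direction, and only its size was open. The log2 fold change was -0.96 without KO1, -0.76 without WT2 and -0.88 without either of them, with adjusted p-values from limma of 0.464, 0.952 and 0.722. Without WT3, in which Gm42418 was also raised, it was -0.94 (adjusted p from limma 0.997). With each of the 6 libraries left out in turn it stayed between -0.96 and -0.68. Over all 13 alternatives the adjusted p did not go below 0.464.

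Cebpb is a gene of 1 exon at chr2:167688915-167690418 (GRCm38, plus strand, GENCODE M21). Of its exonic bases 312, or 20.7%, lie under an exon of Tmem189 on the opposite strand, and whether the counting used strand is not stated. Tmem189 had 7.05, 6.18 and 6.59 in WT and 6.50, 6.02 and 5.96 in Top1mt-KO, with overlapping groups. Its part in the Cebpb values was not tested.

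Cebpa, which drives metabolic genes and restrains hepatocyte growth, had 11.82, 11.96 and 12.16 in WT and 11.31, 12.23 and 12.10 in KO1, KO2 and KO3. KO1 was lowest and KO2 highest of all 6 libraries, so the groups overlapped. Its log2 fold change was -0.10 (SE 0.25, 95% interval -0.68 to 0.48), and it was 0.18 without KO1. The log2 difference between Cebpa and Cebpb was 2.45, 2.46 and 3.02 in WT and 2.59, 3.64 and 3.94 in Top1mt-KO, which overlapped through KO1 (means 2.65 ± 0.33 and 3.39 ± 0.71, SD, n = 3; exact permutation p = 0.2).

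Per length, Cebpb made up 21.4, 21.1 and 16.1% of the summed level of Cebpa, Cebpb, Cebpg and Cebpd in WT1, WT2 and WT3, and 17.8, 10.9 and 8.45% in KO1, KO2 and KO3. The shares in KO2 and KO3 lay below all those of WT, and that of KO1 lay between them. Cebpg, a C/EBP protein without an activation domain of its own that dimerizes with the others, made up 9.51, 10.5 and 8.70% in WT and 18.5, 9.72 and 16.6% in Top1mt-KO. Its log2 fold change was 0.46 (SE 0.20), with an unadjusted p of 0.049, an adjusted p of 0.999 from limma and overlapping groups, since KO2 at 10.31 lay below WT2 at 10.40. Its unadjusted p was not under 0.05 without the trend, with quantile normalization, without the filter, or without WT1, WT3, KO1, KO3 or both WT2 and KO1.

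**Figure D3:**
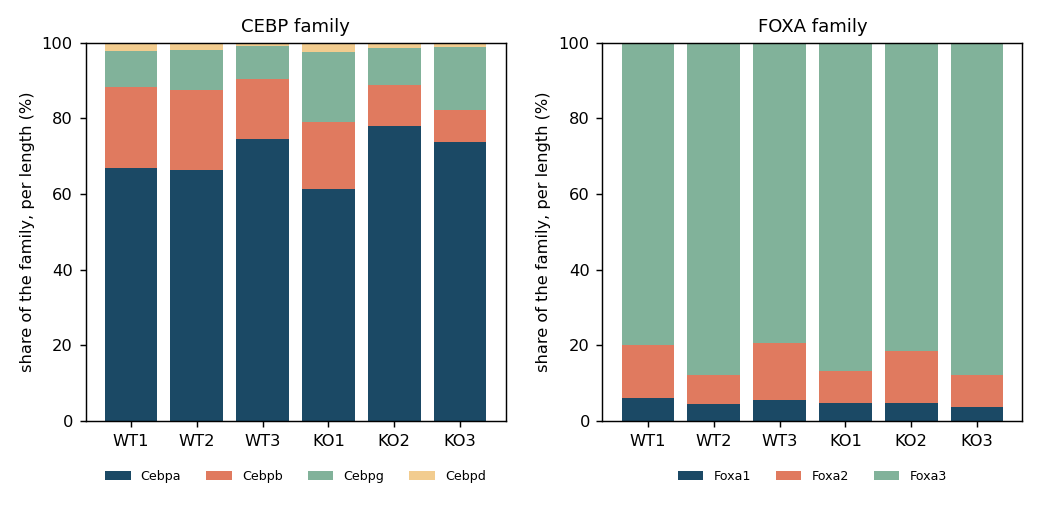
Share of the summed level per length (%, vertical axis) held by each factor of the C/EBP family (left) and FOXA family (right) in each library. Cebpb holds 16.1 to 21.4% in the WT libraries and 8.45 to 17.8% in the Top1mt-KO libraries, while Foxa3 holds 79.3 to 88.0% of its family in all 6.

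Onecut1, Prox1 and Nr5a2 did not separate the genotypes. Onecut1 had 7.32, 7.55 and 8.94 in WT1, WT2 and WT3 and 7.31, 7.65 and 7.73 in Top1mt-KO. WT3 stood above all others, and the log2 fold change of -0.38 (SE 0.40, 95% interval -1.30 to 0.55) became 0.13 without it. Of the exonic bases of Onecut1, 52.8% are shared with the noncoding RNA Gm20649 on the same strand, so its values are uncertain. On these uncertain values its paralog Onecut2 held the larger share of the pair per length, at 53.0 to 75.1%.

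Prox1, which is also a defining factor of lymphatic endothelium, had 11.12, 11.49 and 11.66 in WT and 11.37, 10.97 and 11.73 in Top1mt-KO. KO2 was lowest and KO3 highest, for a log2 fold change of -0.07 (SE 0.23, 95% interval -0.59 to 0.46). Of the 6 lymphatic endothelial markers, 5 had a log2 fold change below 0, with a median of -0.30, and 0 had an unadjusted p under 0.05. Pdpn and Mmrn1 had the largest, at -1.72 and -1.76, and the summed level of the markers was 13.2 to 13.6 in WT and 12.5 to 13.7 in Top1mt-KO. That sum is mostly Reln, at 11.9 to 13.5, which is also listed as a stellate and fibroblast marker, and it says little of the other markers. Prox1os, antisense to Prox1 over 1.59% of its exonic bases, had 5.41, 5.48 and 4.98 in WT and 5.69, 4.55 and 6.25 in Top1mt-KO.

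Nr5a2 had 10.36, 10.67 and 10.22 in WT and 10.42, 10.16 and 9.88 in KO1, KO2 and KO3. KO2 and KO3 lay below all WT libraries and KO1 lay among them. The log2 fold change was -0.26 (SE 0.18, 95% interval -0.68 to 0.17; adjusted p from limma 0.999), and -0.39 without KO1 (adjusted p 0.852).

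**Figure D4:**
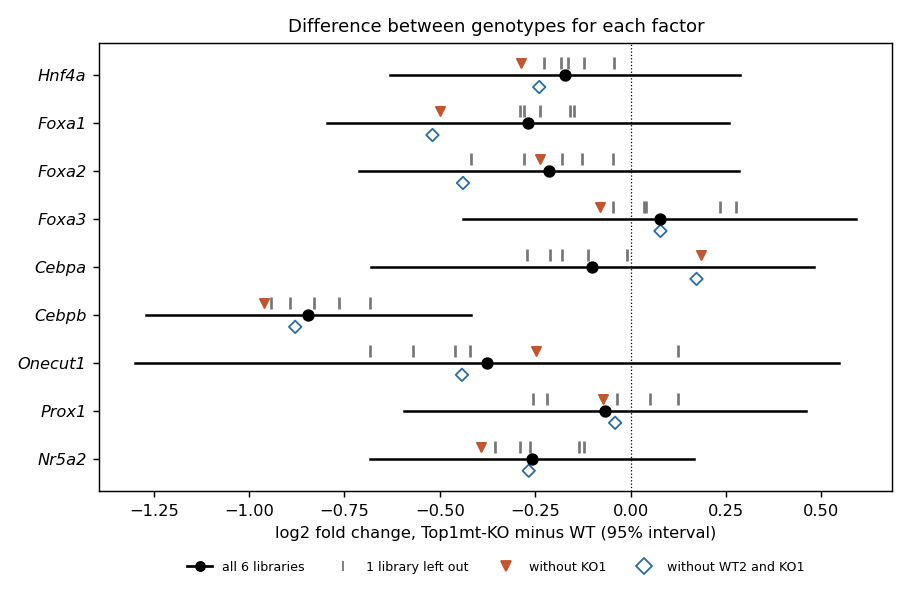
Log2 fold change of each factor, Top1mt-KO minus WT (horizontal axis), with all 6 libraries (point and 95% interval), with 1 library left out (ticks, with the value without KO1 as a triangle) and without WT2 and KO1 (diamond). The Cebpb interval, -1.27 to -0.42, is the only one that does not include 0, and the values of Foxa3, Cebpa, Onecut1 and Prox1 fall on both sides of 0.

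No knockout library was low for all members. Over the 9 members, KO2 and KO3 were each the lowest library for 3 and the highest for 1, and KO1 was the lowest for 2 and the highest for 2. KO1, KO2 and KO3 lay above the member's mean over all libraries for 4, 2 and 3 of 9. WT1, WT2 and WT3 lay above it for 4, 7 and 7. Without KO1, the groups did not overlap for 4 of 9 members (Hnf4a, Foxa1, Cebpb and Nr5a2), against 21.5% of the genes tested, and 2 of 9 (Foxa1 and Cebpb) had an unadjusted p under 0.05, against 5.98%. Without KO1 and WT2, the groups did not overlap for 5 of 9, with Foxa2 added, against 33.7%, and 2 of 9 had an unadjusted p under 0.05, against 5.95%. In these comparisons all of the named members were lower in Top1mt-KO and none passed adjustment.

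Genes whose pattern was most like that of Cebpb were sought among 15696 genes that varied at least 0.5 times as much, by the root mean square difference of centred log2 values over the 6 libraries. The closest were 3010003L21Rik, an antisense RNA (0.074), Cnih2, which encodes an auxiliary subunit of glutamate receptors (0.102), and Gm15433, a processed pseudogene (0.104). Values of 3010003L21Rik and Gm15433 were low, at 2.21 to 3.55 and 2.63 to 4.08. With 6 values per gene and so many candidates, a close pattern is not evidence of shared regulation. Among the members the closest was Nr5a2 (0.301), followed by Foxa1 (0.362). Onecut1 was the farthest (0.703).

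The genes that these factors drive in hepatocytes were compared next, and their differences ran in both directions. Of 32 hepatocyte products, among them apolipoproteins, clotting factors and enzymes of the urea cycle and of gluconeogenesis, 21 had a log2 fold change above 0 and 11 below, with a median of 0.09, and 0 had an unadjusted p under 0.05. Across all genes tested, 2.56% had an unadjusted p under 0.05 and were lower, and 1.79% were higher. The largest differences were those of Cyp8b1 (1.34, SE 0.81), the sterol 12-hydroxylase, and Cyp7a1 (-0.85, SE 0.60), the rate-limiting enzyme of bile acid synthesis, and the groups overlapped for both. Ttr, the thyroid hormone carrier, was higher and Pck1, a gluconeogenic enzyme, lower in every Top1mt-KO than in every WT library, at 0.58 and -0.50. Only these 2 of the 32 were without overlap, against 8.28% of all genes tested, and Pck1 was singled out after its values were seen. Without KO1 and WT2 the median was 0.10. At an unadjusted p under 0.05, 2 of the 32 were then higher and 1 lower, against 5.95% of all genes tested in either direction.

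Of 14 acute phase genes that respond to C/EBP factors, 9 had a log2 fold change below 0, with a median of -0.18, and 1 had an unadjusted p under 0.05. Their summed level went the other way, at 18.386, 18.421 and 18.451 in WT and 18.599, 18.461 and 18.814 in Top1mt-KO, where every knockout library was above every WT library. That sum is mostly Hp, Hpx and the fibrinogen genes, at 15.3 to 17.0, and says little of the other genes of the list. The gene with an unadjusted p under 0.05 was Saa3, a serum amyloid A, with 10.23, 9.45 and 6.85 in WT1, WT2 and WT3 and 5.40, 7.03 and 4.98 in Top1mt-KO. WT3 lay below KO2, so the groups overlapped, and the log2 fold change was -3.04 (SE 0.87; unadjusted p 0.0082, adjusted p from limma 0.999). Saa2 had the next largest difference, -1.73 (SE 0.999), set by WT3 at 10.58. It shares near-identical sequence with Saa1, and the paper kept only uniquely mapped reads, so reads from shared stretches may be left uncounted. The fibrinogen genes Fga, Fgb and Fgg were above 0, at 0.40, 0.25 and 0.41. Without KO1 and WT2, 6 of 14 had an unadjusted p under 0.05, against 5.95% of all genes tested. All 6 were lower (Saa1, Saa2, Orm1, Orm2, Lcn2 and Il1rn), at a median of -0.57 over the list, and 0 of 14 passed adjustment. Saa3 was not among them, at an unadjusted p of 0.0896 from limma. With 1 library left out the median ran from -0.49 (without WT2) to 0.004 (without KO3), and it was -0.08 without WT1 and -0.10 without WT3, with 1 to 4 genes at an unadjusted p under 0.05. These genes other than Saa2 were named after their values were seen, and Orm1 and Orm2 are near-identical copies as well.

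Of 10 NR5A2 targets, 7 had a log2 fold change below 0, with a median of -0.48, and 2 had an unadjusted p under 0.05, in opposite directions. Plk3, a stress kinase, had 9.90, 9.64 and 10.08 in WT and 8.95, 9.84 and 9.03 in Top1mt-KO, a log2 fold change of -0.60 (SE 0.25). Without KO1 and WT2, 7 of 10 had an unadjusted p under 0.05, against 5.95% of all genes tested. Of these 2 were higher, among them Cyp8b1 (2.29), and Nr0b2, Scarb1, Abcg5, Abcg8 and Gls2 were lower (-1.39 to -0.53). After adjustment 0 of 10 passed. Those 5 lower genes were named after their values were seen. The count was 0 without WT1, WT3 or KO3 and without the trend, and 1 without WT2. It was 6 without KO1, where 5.98% of all genes tested had such a p. The median was -0.26 without KO2 and -0.21 without KO3.

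Among 12 genes that regulate the factors or their proteins, 6 had a log2 fold change above 0 and 6 below. Trib1, a pseudokinase that directs C/EBPα protein to degradation, had 9.62, 9.65 and 10.04 in WT and 9.480, 8.9998 and 8.808 in Top1mt-KO. All knockout libraries lay below all WT libraries, at a log2 fold change of -0.68 (SE 0.21; unadjusted p 0.011, adjusted p from limma 0.999). It was the only gene of the 12 without overlap, against 8.28% of all genes tested. Ddit3, the C/EBP family stress factor CHOP, which forms dimers with other C/EBP proteins, had 7.94, 7.73 and 7.44 in WT and 9.13, 7.79 and 9.48 in KO1, KO2 and KO3. KO2 overlapped with WT, and the log2 fold change was 1.10 (SE 0.40; unadjusted p 0.026, adjusted p 0.999). Trib3, a related pseudokinase, had 1.08 (SE 0.61), with overlapping groups. Without KO1 and WT2, 4 of 12 had an unadjusted p under 0.05, against 5.95% of all genes tested, and 0 passed adjustment. All 4 were lower (Trib1, Trib2, Socs3 and Nr0b2, of which only Trib1 was not named after its values were seen). Nr0b2 is the same gene that was counted among the NR5A2 targets.

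Of 17 related and partner factors tested (19 were listed), 8 had a log2 fold change above 0 and 9 below, with a median of -0.02 and Cebpg, described above, as the only gene with an unadjusted p under 0.05.

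**Figure D5:**
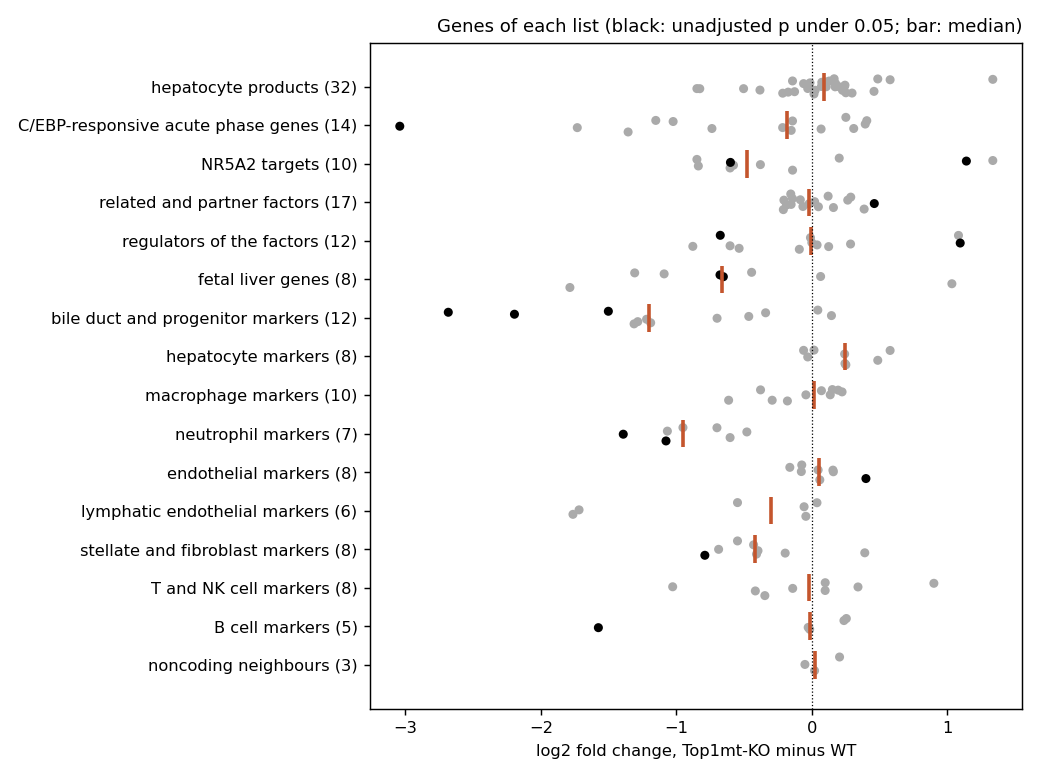
Log2 fold change, Top1mt-KO minus WT (horizontal axis), of each gene tested in 16 lists, with the number of genes tested in parentheses, black points for an unadjusted p under 0.05 and a bar at the median. The hepatocyte products centre on 0.09, the NR5A2 targets on -0.48, the neutrophil markers on -0.95 and the bile duct and progenitor markers on -1.20.

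Genes of the fetal and ductal programs, which lie next to the hepatocyte program in liver development, had medians below 0. Of 8 fetal liver genes tested (9 were listed), 6 had a log2 fold change below 0, with a median of -0.66. The 2 with an unadjusted p under 0.05 were Cd24a (-0.68, SE 0.28) and Igf2bp1 (-0.65, SE 0.28), and Afp, alpha-fetoprotein, had the largest difference at -1.79 (SE 1.05), followed by Dlk1 (-1.31, SE 0.72). With KO1 and WT2 left out, 7 of 8 were below 0, with a median of -0.68. An unadjusted p under 0.05 was then held by 2, against 5.95% of all genes tested. They were Afp at -3.31 and, in the other direction, Igf2bp3 at 1.63. Igf2bp3, a paralog of Igf2bp1 singled out after its values were seen, had a log2 fold change of 1.04 (SE 0.59) with all libraries. Igf2bp1 had values of at most 0.05 and Dlk1 of -0.99 to 1.80, both near the low end of the scale. No fetal gene had an unadjusted p under 0.05 without the trend, without WT1 or without KO3. Of 12 bile duct and progenitor markers, 10 were below 0, with a median of -1.20, while their summed level, 12.02 to 12.88 in WT and 11.87 to 12.68 in Top1mt-KO, overlapped. That sum is mostly Spp1, at 11.3 to 12.6, and says little of the other markers. The median was -0.60 without WT3. Krt19, a keratin of bile duct cells, had 6.11, 4.75 and 6.93 in WT and 2.859, 4.378 and 2.502 in Top1mt-KO, without overlap, at -2.68 (SE 0.69; unadjusted p 0.0049, adjusted p from limma 0.987). Krt7 (-2.195, SE 0.73) had an unadjusted p under 0.05 with overlapping groups. After leaving out KO1 and WT2, 11 of 12 were below 0, with a median of -1.13. Of the 12, 2 then had an unadjusted p under 0.05, against 5.95% of all genes tested. Prom1 had 9.56, 9.79 and 9.70 in WT and 10.44, 7.46 and 7.48 in KO1, KO2 and KO3, and its log2 fold change was -1.22 (adjusted p from limma 0.999). Without KO1 it was -2.21 and passed adjustment (adjusted p 0.041), the only gene of any list to do so under any alternative, and without KO1 and WT2 it was -2.16 and did not pass (adjusted p 0.381). It was singled out after its values were seen.

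Cebpb is also expressed by myeloid cells, and markers of other cells are given beside it. All 7 neutrophil markers had a log2 fold change below 0, with a median of -0.95, and their summed log2 level was 8.12 to 9.93 in WT and 7.69 to 8.47 in Top1mt-KO. S100a8 (-1.39, SE 0.49) and S100a9 (-1.08, SE 0.41) had an unadjusted p under 0.05, and the defining marker Ly6g was near the low end of the scale, at 0.50 to 3.21. All 7 were still below 0 without KO1 and WT2, with a median of -0.80, and 0 had an unadjusted p under 0.05. The count was also 0 without WT2, WT3, KO1 or KO2 alone. The median was -0.42 without WT3, -0.63 without KO1 and -1.49 without WT1. By library the summed neutrophil level was 8.12, 8.99 and 9.93 in WT1, WT2 and WT3. In KO1, KO2 and KO3 it was 7.69, 7.81 and 8.47. The part of neutrophils in the Cebpb values was not tested. Of 10 macrophage markers, 5 were above and 5 below 0, with a median of 0.01 and a summed level of 12.7 to 13.9 in WT and 12.7 to 13.3 in Top1mt-KO. Itgam (-0.61) and Lyz2 (-0.38) had the largest differences.

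Of the remaining cell types, 7 of 8 stellate and fibroblast markers were below 0, with a median of -0.42, a summed level of 13.9 to 14.8 in WT and 13.8 to 14.2 in Top1mt-KO, and Lrat (-0.79, SE 0.29) as the only gene with an unadjusted p under 0.05. Without KO1 the median of this list was 0.11. Of 8 endothelial markers, 5 were above 0, with Cdh5 at 0.40 (SE 0.16, unadjusted p 0.035, without overlap) and a summed level of 13.2 to 13.6 in WT and 13.3 to 13.6 in Top1mt-KO. T and NK cell markers split evenly, 4 above and 4 below 0, with Cd3e at -1.03, Cd3g at 0.90 and a summed level of 6.07 to 6.73 in WT and 6.24 to 6.56 in Top1mt-KO. Of 5 B cell markers 3 were below 0, with Jchain at -1.58 (SE 0.68) and a summed level of 8.23 to 9.004 in WT and 6.88 to 8.75 in Top1mt-KO. The part of these cells in the values of Cebpb and of the other members was not tested.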

How the data were processed

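RNA from 3 WT and 3 Top1mt-KO tumors was sequenced by the authors from stranded libraries. The authors deposited 1 table of normalized log2 values per gene symbol. The submitters' notes list bcl2fastq 2.17, Trimmomatic 0.36, STAR 2.5.1, Subread, DESeq2 and GRCm38, whereas the paper's methods name BWA and a genome called Mm 8, with uniquely mapped reads counted by featureCounts. The log2 transform is not named, behaves like a regularized log, which understates changes of weakly expressed genes, and keeps no counts. Its 3 columns without a name were not used, and 0 other columns of per-sample values were present. Groups came from the sample labels.

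Genotypes were compared with limma 3.58.1 (R 4.3.3; lmFit, eBayes with trend, Benjamini-Hochberg adjustment) over genes whose mean exceeded the lowest 25%, after testing on simulated data. The trend gives the most abundant genes, such as Alb, wide errors. Exonic lengths and positions came from GENCODE M21 on GRCm38, promoter windows from RefSeq (all 9 members matched). The members and lists were chosen with earlier results of these data known. Genes named are the members, Top1mt, in each list those with an unadjusted p under 0.05 and the 2 with the largest differences, and the 3 genes closest to a member whose groups do not overlap. Some genes that this rule names are not reported here. Tf is listed as Trf and Cop1 as Rfwd2. Alternatives were another variance model, scaling, filters, the replicate number as a block and libraries left out.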

Additional observations from a re-analysis of the deposited data

How the results depend on the processing

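No member passed adjustment under any of the 13 alternatives. The log2 fold change of Cebpb ran from -0.96 to -0.68 over them (adjusted p from limma 0.464 at the lowest). Its groups did not overlap, so leaving libraries out could not turn its direction. The number of members with an unadjusted p under 0.05 was 1 with all libraries and 1 to 2 with 1 library left out, and it was 2 without KO1 and 2 without WT2 and KO1. The number whose groups do not overlap was 1 with all libraries, 1 to 4 with 1 library left out (2 without WT2, 4 without KO1) and 5 without WT2 and KO1. Fewer libraries make overlap rarer by construction. The median over the members ranged from -0.26 to -0.046 with 1 library left out, and was -0.046 without WT3, whose Onecut1 value is high.

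With 1 library left out, the direction turned for Foxa3 (-0.080 to 0.277; turned without WT1 or KO1), Cebpa (-0.27 to 0.18; turned without KO1), Onecut1 (-0.68 to 0.13; turned without WT3) and Prox1 (-0.25 to 0.13; turned without WT3 or KO2). Without WT2 and KO1 it turned for Cebpa (0.17). Of these turned values 0 had an unadjusted p under 0.05. The cause was not tested.

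No sign of pairing by replicate number was seen: the deviations of WT and Top1mt-KO libraries with the same number had correlations of -0.12, -0.08 and 0.05. Libraries with different numbers had -0.06 to 0.13, and with 3 libraries per genotype this check cannot exclude a pairing. With a replicate block, Cebpb had a log2 fold change of -0.84 (SE 0.16, adjusted p 0.999) and 0 members were called. Scaling by library medians moved the median of all genes from -0.02 to 0.04, and Cebpb to -0.79. Depth is unknown, and 6 tumors limit the precision.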
